A study of Mus musculus with 6 samples.

Results

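The p53 pathway and the cell death machinery it feeds into were followed in the jaw-forming branchial arch 1 of mice at day 11.5 of embryonic development. The set holds 34 named genes, chosen by symbol as p53, its inhibitors, its target genes and the BCL2-family, receptor and caspase genes of apoptosis. Of these, 32 had at least 1 probe set annotated with that symbol alone and are described here, among 18194 genes measured in all. Trp53, which encodes p53 itself, and Bax were not analysed here. The 3 labelled-mutant embryos are given as Wnt1Cre Ezh2lox/lox, and the 3 labelled-control embryos as Ezh2lox/lox, so that all 6 embryos carried lox alleles of Ezh2. Ezh2 is the catalytic subunit of Polycomb repressive complex 2, which keeps developmental genes and cell cycle inhibitors silent. The Wnt1-driven Cre recombinase is meant to act in neural crest cells, so that muscle precursors, epithelium, vessels and blood of the arch should keep the gene. Each array was hybridised with RNA of 1 whole arch from 1 embryo, and fewer cells of a type cannot be told apart from less RNA per cell.

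p53 is a transcription factor that is held low by Mdm2 and Mdm4 and is stabilised by DNA damage or by oncogenic stress. Its targets slow the cell cycle, repair DNA, adjust metabolism and, through BH3-only proteins and death receptors, start apoptosis. In the intrinsic route, BH3-only proteins free Bax and Bak1 to open the mitochondria, after which Apaf1 and Casp9 activate the executing caspases, whereas the extrinsic route runs from death receptors through Casp8. Neural crest cells of the face are known to be sensitive to p53 activation in mice.

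The labels could not be checked against the targeted gene. The single Ezh2 probe set read 11.66, 11.66 and 11.65 log2 units on the labelled-mutant arrays and 11.80, 11.52 and 11.56 on the labelled-control arrays, and its position relative to the deleted exons is not known here. The arrays labelled mutant had the female pattern of Xist and the Y-linked genes and the arrays labelled control the male one, with Xist at 13.03 ± 0.10 and 5.62 ± 0.15 in that order (SD, n = 3 each), so that label and embryo sex cannot be told apart in any comparison. Of all genes tested, 4.3% were lower and 1.23% higher on the labelled-mutant arrays (limma, Benjamini-Hochberg adjusted p under 0.05). Polycomb is known to silence Hox genes in the jaw arch. Of 33 measured, 22 (66.7%) were lower and 0 higher on the labelled-mutant arrays, with 0 higher also at an unadjusted p of 0.05. That direction is opposite to loss of Polycomb repression in the library labelled mutant, and so is the fall of Cdkn2a, a classical Polycomb target, by 3.20. An exchange of the labels was not tested and would turn every fall below into a rise, so all directions are those of the labels. Values are log2 signals as deposited, with all 6 arrays on 1 distribution (25th percentile 4.33, median 5.81), and a change is labelled mutant minus labelled control.

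Promoter sequence was available for 25 of the 32 genes, as windows from 250 bases before to 50 bases after an annotated start (RefSeq, GRCm38.p6). The windows of Ccng1, Casp8 and Eda2r are shown because these genes fell in the labelled-mutant arches, and that of Mdm2 because it is a p53 target that did not pass the test. Pmaip1 and Trp53inp1, which also fell, had no window, so their promoters are not described. Capitals mark a match to the p53 half-site consensus, which reads the same on both strands, and all 4 windows are written 5′ to 3′ on the gene's strand. They lie at chr11:40755237-40755536 (minus strand) for Ccng1, chr1:58802252-58802551 (plus) for Casp8, chrX:97377160-97377459 (minus) for Eda2r and chr10:117710709-117711008 (minus) for Mdm2.
Ccng1: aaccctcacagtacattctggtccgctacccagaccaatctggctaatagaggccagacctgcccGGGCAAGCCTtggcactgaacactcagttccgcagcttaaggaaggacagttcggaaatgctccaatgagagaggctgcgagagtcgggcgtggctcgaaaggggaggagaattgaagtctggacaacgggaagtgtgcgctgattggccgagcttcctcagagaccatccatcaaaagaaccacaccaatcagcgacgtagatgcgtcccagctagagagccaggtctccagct
Casp8: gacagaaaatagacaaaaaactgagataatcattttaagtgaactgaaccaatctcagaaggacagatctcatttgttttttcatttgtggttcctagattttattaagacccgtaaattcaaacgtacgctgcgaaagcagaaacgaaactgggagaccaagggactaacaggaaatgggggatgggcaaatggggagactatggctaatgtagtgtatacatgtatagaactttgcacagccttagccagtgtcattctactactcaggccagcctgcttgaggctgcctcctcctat
Eda2r: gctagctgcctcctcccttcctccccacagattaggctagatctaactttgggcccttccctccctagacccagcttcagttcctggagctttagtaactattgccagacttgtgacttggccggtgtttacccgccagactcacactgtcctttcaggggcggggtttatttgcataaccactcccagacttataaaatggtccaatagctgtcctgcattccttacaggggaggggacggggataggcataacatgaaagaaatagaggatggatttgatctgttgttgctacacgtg
Mdm2: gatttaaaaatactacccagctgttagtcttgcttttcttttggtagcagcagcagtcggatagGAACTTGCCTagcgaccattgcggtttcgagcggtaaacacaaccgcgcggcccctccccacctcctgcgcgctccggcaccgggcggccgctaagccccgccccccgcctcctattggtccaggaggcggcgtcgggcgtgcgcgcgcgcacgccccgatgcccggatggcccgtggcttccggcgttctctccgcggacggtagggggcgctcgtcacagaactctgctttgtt
The half-site starts 185 bases before the Ccng1 start and 186 bases before the Mdm2 start, and no half-site was found in the Casp8 and Eda2r windows. Over all windows of these genes, 8 of 34 (23.5%) held a half-site, against 8.36% of 32851 windows in the whole table, and the 2 Aen windows overlap and share 1 match. Gadd45a, Aen, Ei24, Sesn1 and Polk were the others with a match. A full site of a pair of half-sites at most 13 bases apart was found in 0 windows of these genes and in 24 (0.0731%) of the table. Only exact matches within the windows were counted, so that sites elsewhere in a gene or with a mismatch were not looked for. The windows of these genes were also richer in G and C, with a median of 64.7% against 52.7%. The observed over expected CpG ratio was 0.60 for Ccng1, 0.38 for Casp8 and 0.26 for Eda2r, below the median of 0.74 over the windows of these genes and on either side of the 0.38 median of all windows.

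In the comparison of the labels, 5 of the 32 genes passed the test and all 5 were lower in the labelled-mutant arches. They were Trp53inp1, Pmaip1, Eda2r, Casp8 and Ccng1, with falls of 0.50 to 1.10 on the log2 scale. The share lower was 15.6%, against 4.3% of all 18194 genes (limma, Benjamini-Hochberg adjusted p under 0.05), of which 5.53% passed in either direction. The 32 genes and the further lists below were chosen with earlier results of these data known. Such shares are therefore descriptions and not tests of the set. None of the 32 passed as higher, against 1.23% of all genes, and at an unadjusted p of 0.05 10 were lower and 2 higher, against 10.2% and 8.54% of all genes. The share of all calls that were higher was 22.2%, and 41.5% with each array centred on its median over genes, a setting in which the same 5 genes and no others passed. The median change of the 32 genes was -0.07, with 21 negative and 11 positive values, against a median of 0.02 over all genes. With centring the 2 medians were -0.00033 and 0.09. Arrays of the 2 labels did not overlap in 10 genes on the lower side and 4 on the higher side, where 11.9% and 13% of all genes do so. The count of 5 was 3 without labelled-mutant array 2, without labelled-mutant array 3 and without labelled-control array 2, in each case Trp53inp1, Pmaip1 and Eda2r.

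**Figure D1:**
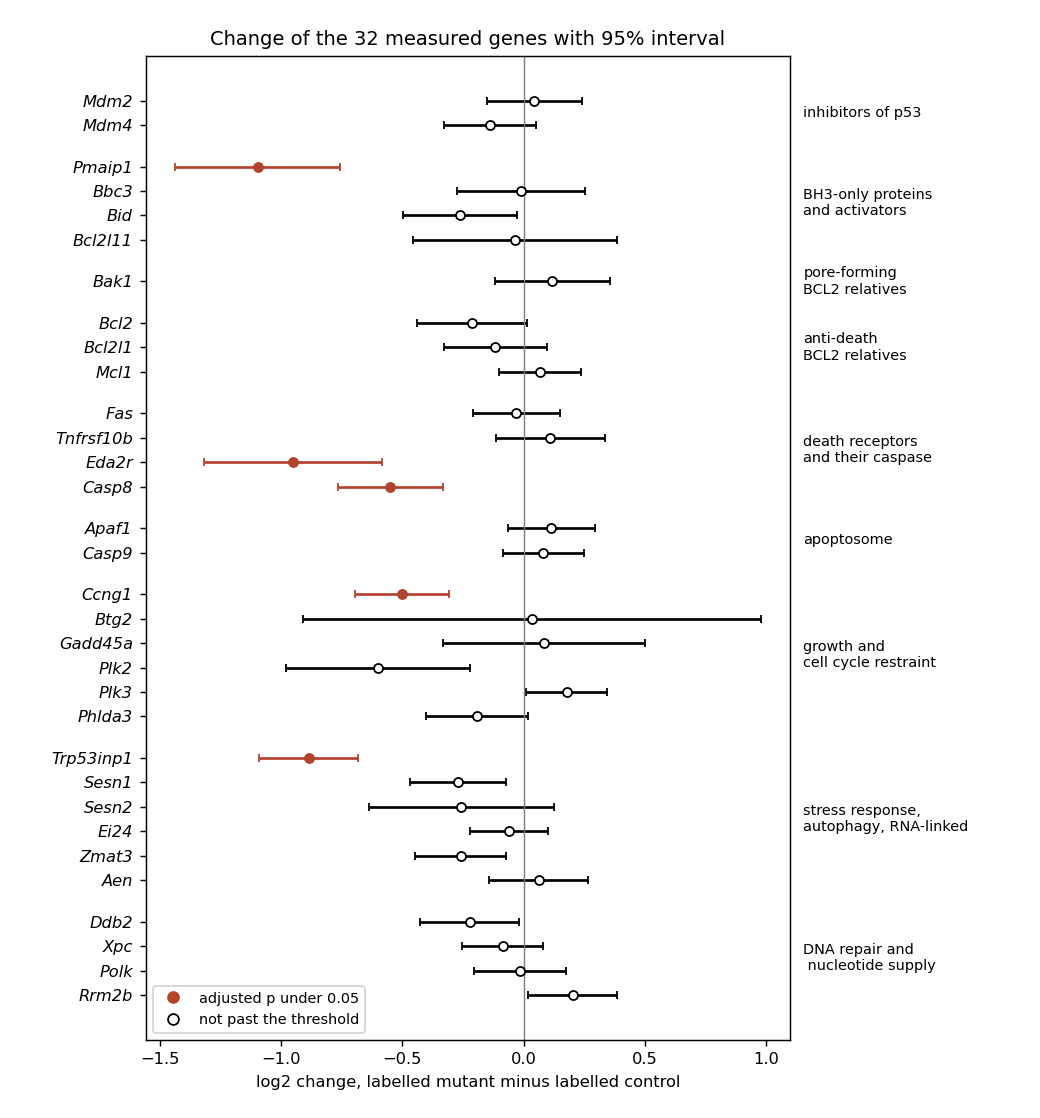
Log2 change (labelled mutant minus labelled control, x axis) of the 32 measured genes, grouped by role; points are fitted changes from 3 arrays per label, bars their 95% intervals, and filled points passed an adjusted p of 0.05. The 5 filled points all lie left of 0, between -1.10 and -0.50, while the intervals of most other genes span 0.

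Pmaip1 encodes Noxa, a BH3-only protein that neutralises Mcl1 and is a classical p53 target. It read 6.45, 6.16 and 5.98 on the labelled-mutant arrays, against 7.01, 7.45 and 7.41 on the labelled-control arrays. Every labelled-mutant array was lower, and the groups lay 0.57 apart at their nearest. The fall of 1.10 (SE 0.15) corresponds to 2.14-fold higher signal in the labelled-control arches (limma, Benjamini-Hochberg adjusted p = 0.00438).

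Trp53inp1 encodes a stress-induced nuclear protein that promotes p53-dependent death and autophagy. Its signals were 10.36, 10.16 and 10.21 on the labelled-mutant arrays, against 11.20, 11.18 and 11.01 on the labelled-control arrays. The groups were separated by 0.65, which exceeds the range within either of them. It fell by 0.89 (SE 0.09, limma, Benjamini-Hochberg adjusted p = 0.00103), the smallest adjusted p among the 32 genes. Its other probe set, with a mean of 4.72 below the array median, had a change of -0.25 and did not pass.

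Eda2r, a receptor of the tumour necrosis factor family that binds an ectodysplasin isoform and is induced by p53, read 4.80, 5.27 and 5.33 in the labelled-mutant arches, against 6.31, 5.85 and 6.09 in the labelled-control arches. The groups did not overlap, and the labelled-mutant signals lay below the array median on every array. The fall was 0.95 (SE 0.16, limma, Benjamini-Hochberg adjusted p = 0.0112), and its single probe set allows no check by a second probe. Eda2r lies on the X chromosome, and the labels differ in sex pattern. Of 618 X-linked genes tested 20 (3.24%) were lower and 15 higher, where 4.3% of all genes were lower and 1.23% higher. The X-linked share was thus below that of all genes on the lower side and above it on the higher side.

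Casp8, the initiator caspase of the death receptors, had signals of 8.42, 8.14 and 8.20 on the labelled-mutant arrays, against 8.72, 8.89 and 8.79 on the labelled-control arrays. Ccng1, which encodes cyclin G1, a p53 target that acts back on Mdm2 through a phosphatase, read 9.25, 9.25 and 9.28 on the labelled-mutant arrays against 9.85, 9.83 and 9.62 on the labelled-control arrays. In both genes the highest labelled-mutant array stayed below the lowest labelled-control array. Casp8 fell by 0.55 (SE 0.10, limma, Benjamini-Hochberg adjusted p = 0.0124) and Ccng1 by 0.50 (SE 0.08, adjusted p = 0.0112). All 3 Ccng1 probe sets had negative changes with no overlap, of -0.50, -0.36 and -0.30, whereas Casp8 had 1 probe set. Both missed the threshold without labelled-mutant array 2, labelled-mutant array 3 or labelled-control array 2, at changes of similar size. Casp8 then had changes of -0.49, -0.52 and -0.50 (limma, Benjamini-Hochberg adjusted p = 0.0642, 0.0711 and 0.0564), and Ccng1 of -0.50, -0.51 and -0.47 (0.0565, 0.0563 and 0.0511).

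**Figure D2:**
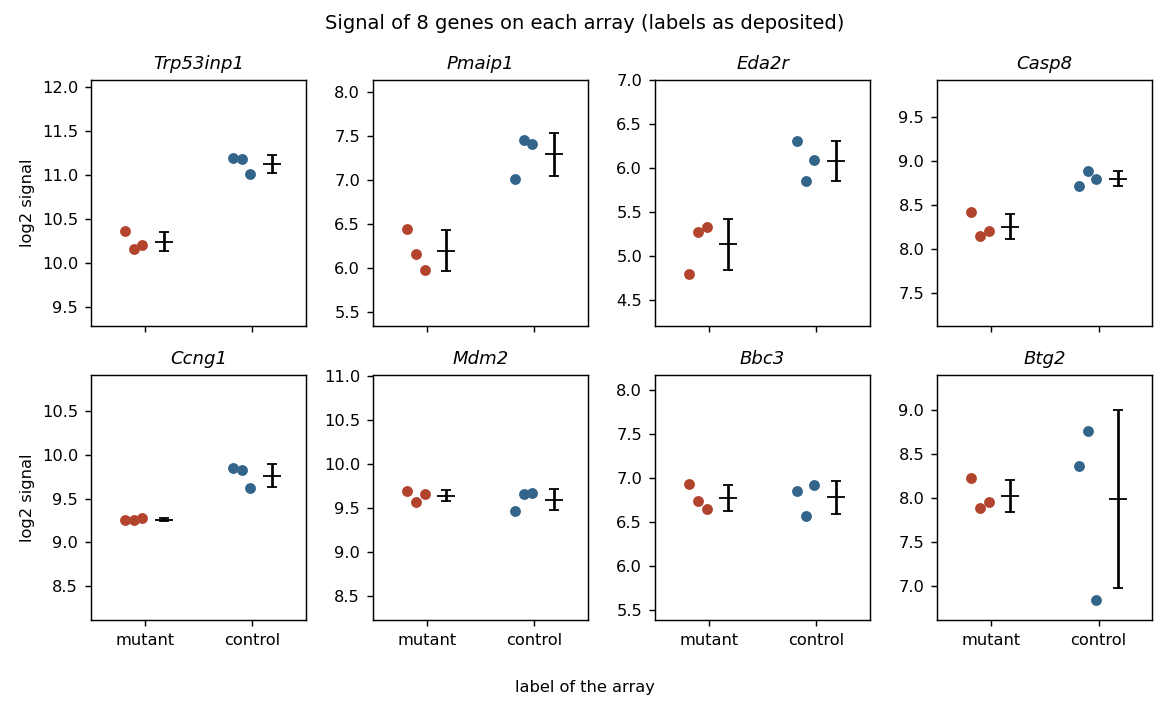
Log2 signal (y axis, the same span in each panel) of 8 genes on the 3 labelled-mutant and 3 labelled-control arrays; points are arrays, bars the mean and SD. Trp53inp1, Pmaip1, Eda2r, Casp8 and Ccng1 separate without overlap, Mdm2 and Bbc3 overlap, and Btg2 has 1 labelled-control array at 6.83 below the other two.

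The inhibitors of p53 did not pass. Mdm2, the ubiquitin ligase that degrades p53 and is itself a classical p53 target, read 9.70, 9.57 and 9.66 on the labelled-mutant arrays, against 9.46, 9.66 and 9.67 on the labelled-control arrays. The groups overlapped, and the change of 0.05 had a 95% interval of -0.15 to 0.24 (limma, Benjamini-Hochberg adjusted p = 0.842). Its 2 further probe sets gave -0.12 and -0.21, the second at signals near 4 at the dim end of the scale. Mdm4, the relative of Mdm2 that blocks p53 without degrading it, had a change of -0.14 at its brightest probe set (interval -0.33 to 0.05). The 3 others gave 0.09 to 0.34, so that its direction depends on the probe set. The one at 0.34 had no overlap between labels and missed the threshold (limma over all probe sets, Benjamini-Hochberg adjusted p = 0.0768).

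Among the BH3-only genes only Pmaip1 passed. Bbc3, which encodes Puma and is the other classical p53 target of this class, read 6.94, 6.74 and 6.65 in the labelled-mutant arches against 6.86, 6.57 and 6.93 in the labelled-control arches. These values overlap fully, with a change of -0.01 and a 95% interval of -0.27 to 0.26, which does not reach the change of Pmaip1. Bid, which links Casp8 to the mitochondria when cut, had a change of -0.26 (adjusted p = 0.215), with groups that lay 0.03 apart and 3 of 3 probe sets negative. Bcl2l11, which encodes Bim, had a change of -0.04 at its brightest of 5 probe sets and of up to 0.23 at another.

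The pore-forming Bak1 and its protective relatives did not pass either. Bak1 had a change of 0.12, and the protective genes Bcl2, Bcl2l1 and Mcl1 had changes of -0.21, -0.12 and 0.07 (limma, Benjamini-Hochberg adjusted p = 0.609, 0.303, 0.568 and 0.698). The 95% interval of Bcl2 was -0.44 to 0.02, and that of Mcl1, the partner of Noxa, was -0.10 to 0.24. Mcl1 read 12.20, 12.22 and 12.12 on the labelled-mutant arrays, against 12.14, 12.15 and 12.05 on the labelled-control arrays, and its 6 probe sets ranged from -0.03 to 0.09. Bcl2l1 had a negative change at its brightest probe set and positive ones of 0.12 to 0.34 at 3 dimmer probe sets.

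Of the other genes of the receptor route, the death receptor Fas read 3.64, 3.75 and 3.65 in the labelled-mutant arches against 3.65, 3.69 and 3.80 in the labelled-control arches. All these signals lie below the 25th percentile of the arrays, so that a small change of Fas says little about its expression. Tnfrsf10b, the mouse receptor for the death ligand TRAIL, was also dim, with means of 4.68 in the labelled-mutant and 4.57 in the labelled-control arches and a change of 0.11 (adjusted p = 0.614). In the apoptosome, Apaf1, the scaffold, and Casp9, its initiator caspase, had changes of 0.12 and 0.08, and although their groups did not overlap, the gaps were 0.007 and 0.02 (limma, Benjamini-Hochberg adjusted p = 0.488 and 0.612).

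Apart from Ccng1, no gene that restrains growth passed. Plk2, a Polo-like kinase induced by p53, read 10.42, 9.72 and 9.96 on the labelled-mutant arrays, against 10.48, 10.77 and 10.65 on the labelled-control arrays. The groups did not overlap, yet labelled-mutant array 1 came within 0.06 of the labelled-control arrays, and the change of -0.60 missed the threshold (limma, Benjamini-Hochberg adjusted p = 0.0842). Without that array it passed (adjusted p = 0.0112), and without each of the others the adjusted p was between 0.0987 and 0.255. A second, dim probe set of Plk2 gave 0.11, and the mean of both gave -0.24 (adjusted p = 0.224). Plk3, a kinase of the same family, had a change of 0.18 (adjusted p = 0.237) and Phlda3, an inhibitor of Akt, one of -0.19 (0.313). Gadd45a, a DNA damage response gene, had a change of 0.08 with an interval of -0.33 to 0.50.

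Btg2, an antiproliferative p53 target, could not be read from its brightest probe set. That probe set gave 8.22, 7.89 and 7.95 on the labelled-mutant arrays, against 8.36, 8.77 and 6.83 on the labelled-control arrays. Labelled-control array 3 is the low one, and the interval of the change ran from -0.91 to 0.98. The second Btg2 probe set read 8.13 on that same array and gave a change of -0.20 (limma over all probe sets, Benjamini-Hochberg adjusted p = 0.452), so that the probe sets disagree on labelled-control array 3. Without that array the brightest probe set gave -0.54 (adjusted p = 0.0919).

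Beyond Trp53inp1, several stress response genes had small negative values that did not pass. Sesn1, a sestrin that restrains mTORC1 signalling, read 9.75, 9.56 and 9.68 in the labelled-mutant arches against 9.88, 9.88 and 10.05 in the labelled-control arches, a change of -0.27 without overlap (limma, Benjamini-Hochberg adjusted p = 0.131). All 4 of its probe sets were negative, from -0.46 to -0.18. Zmat3, an RNA-binding regulator of splicing, had a change of -0.26 with no overlap (adjusted p = 0.127), and Sesn2, the other sestrin, one of -0.26 with overlap (0.466). Ei24 and Aen, an autophagy-related membrane protein gene and an exonuclease gene, had changes of -0.06 and 0.06.

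None of the repair genes passed. Ddb2, which recognises ultraviolet damage, had a change of -0.22 and of -0.38 at its second probe set (adjusted p = 0.225 for the brighter), and Rrm2b, the p53-induced ribonucleotide reductase subunit, one of 0.20 (0.225). Xpc, a damage sensor of nucleotide excision repair, and Polk, a translesion polymerase, had changes of -0.09 and -0.01. Their intervals of -0.25 to 0.08 and -0.20 to 0.18 do not reach the change of any of the 5 genes that fell.

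**Figure D3:**
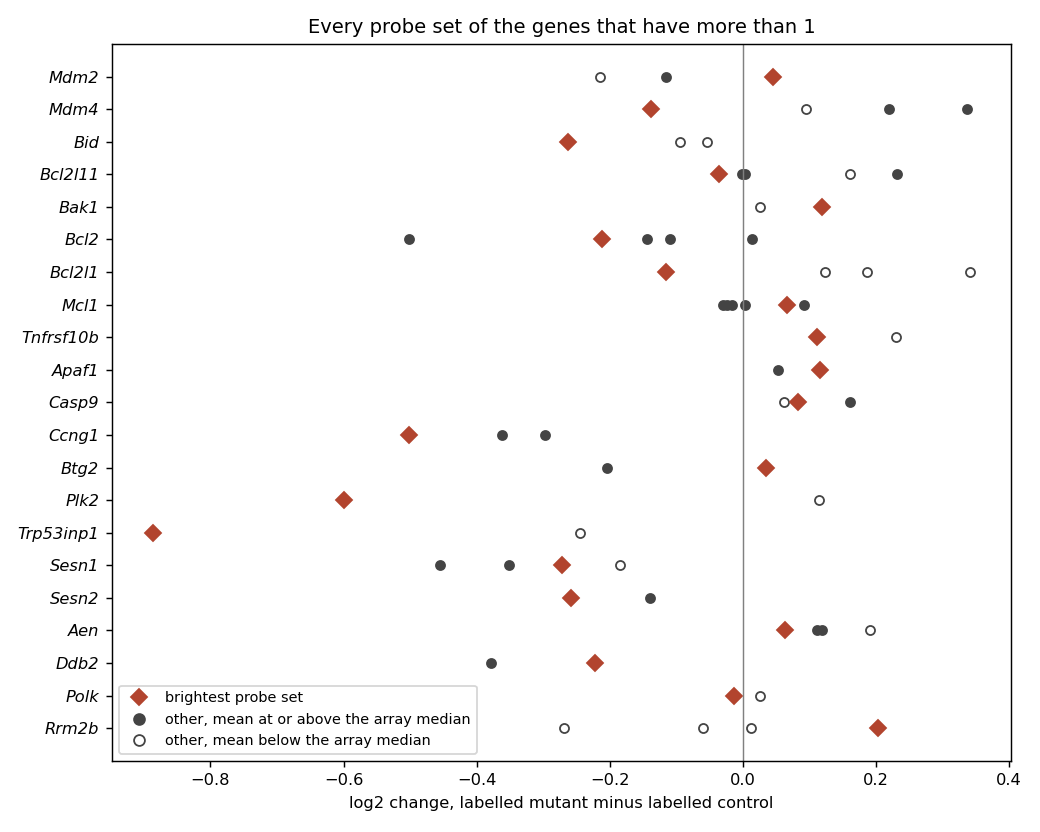
Log2 change (labelled mutant minus labelled control, x axis) of every probe set of the 21 genes with more than 1; diamonds are the brightest probe set, filled circles others at or above the array median and open circles dimmer ones. The probe sets of Ccng1 and Sesn1 all lie left of 0, while those of Mdm4, Bcl2l1 and Rrm2b lie on both sides.

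The 32 genes had 77 probe sets, and 21 genes had more than 1. In 11 of these 21 all probe sets had the same sign and in 10 they differed. Tested as single probe sets among all 34958, 5 of the 77 were lower and 0 higher, where 2.27% of all probe sets were lower, and they were the brightest probe sets of the 5 genes already named.

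Further genes of the pathway were taken from lists of textbook members. Of 40 further p53 targets measured, 3 fell, 0 rose and 37 did not pass, a share of 7.5% lower, against 4.3% of all genes, with a median change of -0.01. Those that fell were Dram1, an autophagy gene (-0.48), Bcl6, a transcriptional repressor (-0.62), and Cpt1c, a carnitine palmitoyltransferase relative (-0.40), with limma's Benjamini-Hochberg adjusted p at 0.0190, 0.0209 and 0.0236. Dram1 and Bcl6 lay below the array median on all arrays, and a second Bcl6 probe set gave 0.18. At an unadjusted p of 0.05, 8 of the 40 were lower and 8 higher, against 10.2% and 8.54% of all genes. Cdkn1a, the p53 target that arrests the cell cycle, was named after its values were seen: it read 7.31, 7.49 and 7.29 in the labelled-mutant arches against 7.38, 7.16 and 7.33 in the labelled-control arches, a change of 0.07 with an interval of -0.14 to 0.28. The count of 3 was 0 without labelled-mutant array 3 or labelled-control array 2, and 1 without labelled-mutant array 2 or labelled-control array 3.

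Of 37 further genes of the apoptosis machinery, 1 fell, 0 rose and 36 did not pass (2.7% lower, against 4.3% of all genes, median 0.01). At an unadjusted p of 0.05, 3 of the 37 were lower and 1 higher, against 10.2% and 8.54% of all genes. The 1 that fell was Tnfrsf1a, the main receptor for tumour necrosis factor, by 0.33 (limma, Benjamini-Hochberg adjusted p = 0.0498). Its call was not stable, since the count was 0 in 5 of the 6 fits that left out an array. Next by the size of the test statistic were Tradd, its adaptor, at -0.33 and Bcl2l13 at 0.18, neither past the threshold (0.0598 and 0.215).

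Upstream of p53, 2 of 30 genes for damage signalling and p53 regulation fell, 0 rose and 28 did not pass (6.67% lower, against 4.3% of all genes, median 0.08). At an unadjusted p of 0.05, 2 of the 30 were lower and 3 higher, against 10.2% and 8.54% of all genes. Cdkn2a, whose products are a CDK inhibitor and Arf, the protein that holds Mdm2 off p53, read 3.82, 3.96 and 3.57 in the labelled-mutant arches, against 7.32, 7.24 and 6.41 in the labelled-control arches. It lay below the 25th percentile on every labelled-mutant array and above the array median on every labelled-control array. The fall was 3.20 (SE 0.22, limma, Benjamini-Hochberg adjusted p = 1.39e-04), and its single probe set does not tell the products apart here. Ppp1r13b, which encodes ASPP1, a p53 partner that favours apoptotic targets, read 7.99, 7.59 and 7.65 in the labelled-mutant arches against 8.43, 8.48 and 8.35 in the labelled-control arches, a fall of 0.67 (adjusted p = 0.0109). The count of 2 was 1 without labelled-mutant array 2, labelled-mutant array 3 or labelled-control array 2. Brca1, a repair gene and the third by test statistic, had a change of 0.25 that did not pass. Of the 6 CDK inhibitors measured apart from Cdkn1a, 4 (66.7%) fell, against 4.3% of all genes, and 2 did not pass. The 4 were Cdkn2a, Cdkn2c (-2.82), Cdkn2b (-1.80) and Cdkn1c (-0.83).

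**Figure D4:**
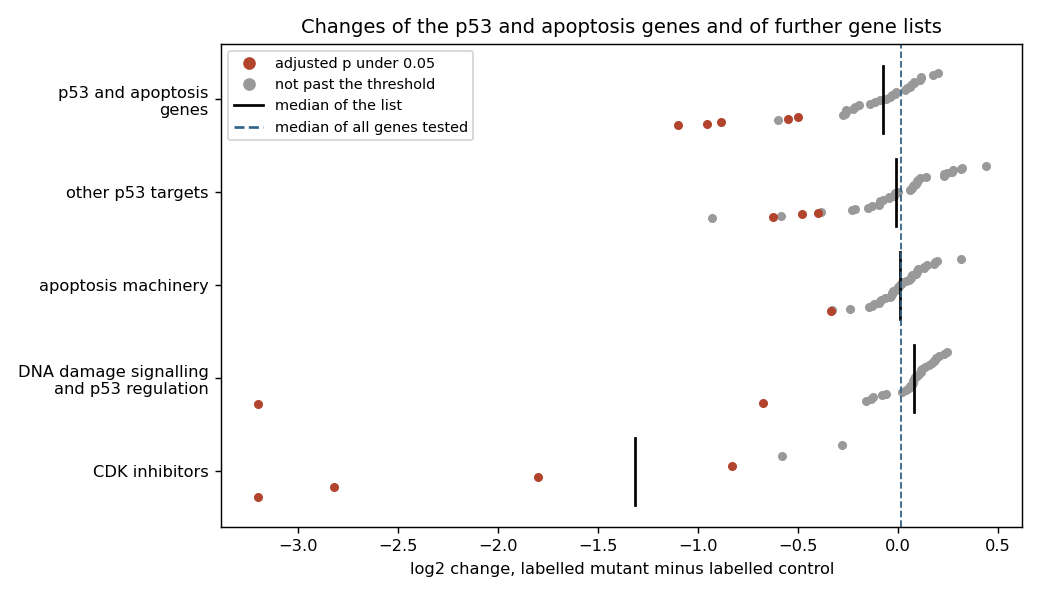
Log2 change (labelled mutant minus labelled control, x axis) of the 32 genes and of 4 further lists, sorted within each; red points passed an adjusted p of 0.05, black bars are list medians and the dashed line the median of all genes, 0.02. Cdkn2a at -3.20 stands in 2 lists, and the medians of the first 4 rows lie between -0.07 and 0.08.

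Some markers of neurons, skeletal muscle and arch mesenchyme moved with the labels. Of 11 neuron markers 5 (45.5%) fell, against 4.3% of all genes. Their median change was -0.17, the lowest -2.56, and 2 of the 11 had positive changes. The summed log2 signal of all 11 was 66.8 to 69.2 on the labelled-mutant arrays and 75.3 to 77.1 on the labelled-control arrays. Of 9 skeletal muscle markers 4 (44.4%) fell, with a median change of -0.34, a lowest of -2.25 and 2 positive changes. The sums of all 9 were 52.3 to 57.9 on the labelled-mutant and 59.7 to 62.5 on the labelled-control arrays. Of 10 arch mesenchyme markers 5 rose, against 1.23% of all genes, with a median change of 0.36, a highest of 1.18 and 2 negative changes. The sums of all 10 were 99.5 to 101 on the labelled-mutant and 94.9 to 95.9 on the labelled-control arrays. These 3 sums did not overlap between labels, and a few markers with large changes can carry a sum. The neuron markers Neurod1 and Snap25 and the erythroid marker Hba-a1 lay below the 25th percentile on all arrays, and no other marker did. For glia and melanoblasts (1 of 6 lower), epithelium (1 of 10 higher), endothelium (0 of 8), macrophages (1 of 9 lower) and erythroid cells (1 of 7 lower) the sums overlapped. The arch mesenchyme markers were above the 25th percentile on every array (10 of 10). The part of these cell types in the 5 falls was not tested.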

How the data were processed

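Per the labels' protocols, total RNA of 1 arch per embryo was biotin-labelled for 1-colour arrays. The deposited log2 values, 1 per probe set and array, had been brought by the authors to 1 distribution. The log2 scale was inferred from the range (2.63 to 14.68). The summary method and software are not given in the sources. Of 45101 probe sets, 34958 had 1 gene symbol in the platform annotation, 932 had several and 9211 none. Each of 18194 genes was represented by its brightest probe set over the 6 arrays, without a filter on dim genes.

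Changes were fitted with limma 3.58.1 (R 4.3.3) over all genes with no covariate, as two-sided tests at a Benjamini-Hochberg adjusted p of 0.05. The labels call the arrays biological replicates, 3 per label. Arrays were simulated with independent normal noise at limma's moderated spread of these 18194 genes. Shifts of 0.5, 1 and 2 were given to 67, 67 and 66 genes. There, 76.1% of shifts of 0.5 were found, as were 100% of shifts of 1 or 2, and 5.64% of calls were false. The noise followed the fitted model, so that the false share mostly reflects the threshold. These rates depend on the number of shifted genes, which was smaller than the 1007 that passed in the data. They also do not carry over to genes whose own spread is larger than the moderated one. Correlations between arrays were 0.995 to 0.998 within and 0.988 to 0.992 between labels, and no array repeated another. With 3 arrays per label, precision is limited by their number.

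The genes, roles and further lists were chosen with earlier results of these data known. All 32 measured genes are named, with the members of each further list that passed and the 3 with the largest test statistic. Of the CDK inhibitors the genes past the threshold are named. Hox genes are given as counts, and markers as counts and summed signals or their overlap, without naming those past the threshold. The 3 markers named were dim on all arrays. Alternatives were a replicate block, quantile normalization, median centring, the mean of probe sets, a floor at the 20th percentile, leaving out genes below the median level, trend and robust variance, testing all probe sets, and leaving out each array.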

Additional observations from a re-analysis of the deposited data

How the results depend on the processing

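The 5 falls kept their direction in every alternative that tested them, and Trp53inp1, Pmaip1 and Eda2r also kept their side of the threshold. With genes below the median level left out, Pmaip1 and Eda2r were not among the genes tested, so that 3 of 25 passed as lower, and 435 of all genes did. Leaving out 1 array gave 3 to 6 lower among the 32 genes, 0 higher in each case, 372 (without labelled-mutant array 3) to 777 lower and 63 to 244 higher over all genes, and a median change of -0.12 to -0.051 for the 32. It gave 0 to 4 lower for the other p53 targets, 0 to 2 for the apoptosis machinery and 1 to 2 for damage signalling. Genes higher numbered 112 with a replicate block, 479 with median centring and 118 with all probe sets tested, against 224. Other p53 targets lower were 1 with the replicate block and 1 with dim genes left out, apoptosis machinery 0 with the replicate block, quantile normalization, median centring or all probe sets tested, and damage signalling 1 with dim genes left out. Median centring brought the median of the 32 to -0.00033. The block changed no call among the 32, where 5 were lower with it. Same-numbered arrays correlated at -0.21, -0.12 and -0.07 in their deviations from the group means. Whether the replicate numbers pair the arrays is not given in the labels, and these values cannot decide it. Signs turned only in genes that did not pass either way. With the mean of probe sets these were Mdm2 (-0.095), Mdm4 (0.13), Bcl2l11 (0.071), Bcl2l1 (0.13), Btg2 (-0.085), Polk (0.0058) and Rrm2b (-0.029). With quantile normalization they were Bbc3 (0.061) and Polk (0.037), and with median centring Bbc3 (0.063), Bcl2l11 (0.037), Fas (0.043), Ei24 (0.013) and Polk (0.059). Without 1 array the changes ranged from -0.023 to 0.081 for Mdm2, -0.12 to 0.061 for Bbc3, -0.26 to 0.16 for Bcl2l11, -0.066 to 0.013 for Fas, -0.54 to 0.42 for Btg2, -0.16 to 0.22 for Gadd45a, -0.015 to 0.13 for Aen and -0.052 to 0.035 for Polk. The cause of these shifts was not tested. Signals near the low end, as for Fas and Tnfrsf10b, limit what a small change can show.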
